A study of Mus musculus with 8 samples.

Results

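The adhesion and homing receptors that leukocytes use to leave the bloodstream were examined as a set of 9 genes, Itgam, Itgal, Itgb2, Itga4, Selplg, Cd34, Cd44, Cxcr4 and Cxcr2, out of 21751 protein-coding genes. The list was drawn up by gene function, and a loop was assigned to a gene when 1 of its 2 bins of 5 kb held the start of the canonical transcript (GENCODE mouse release 39 on GRCm39). In all, 132 of 214313 different loops met this rule. The loops came from H3K27ac HiChIP. It pulls down chromatin with histone H3 acetylated at lysine 27, found at promoters and enhancers in use, and then ligates neighbouring pieces.

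The cells were HPC-7, a mouse haematopoietic progenitor line grown with SCF. Every group was a retrovirally transduced derivative carrying 1 isoform of CEBPA, the master factor of the granulocyte lineage. The p42 groups carried the full-length protein and the p30 groups the short form that lacks the N-terminal part. Each was untreated (UT) or received 100 ng/mL of LPS, the Toll-like receptor 4 ligand, for 2 h. No group of cells without an added isoform was analysed here. The study's methods describe both ERT2-fused and constitutive constructs, and the HiChIP section does not name the one used. The names p42 HPC-7 and p30 HPC-7 were given to GFP-sorted lines with ERT2-fused protein, brought into the nucleus with 4-hydroxytamoxifen. A caption on the HiChIP loops uses the name p42 HPC-7. The 8 libraries, 2 per group, were deposited as 4 lists of significant loops, 1 per group, so no spread between replicates can be given and each difference compares pooled libraries, not conditions.

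Values for several lists are given in the order p30 UT, p30 LPS, p42 UT, p42 LPS unless named. The lists held 80489, 94609, 158233 and 78591 loops, from 17976716, 14503330, 18999991 and 15831583 contacts in the caller's model. Because the p42 UT list was the longest, numbers of loops are also given for lists of equal size, made of the 78591 loops with the smallest q-values in each. Start-site bins of the progenitor genes Kit, Gata2, Lmo2, Runx1 and Cd34 had loops in every list, where 35.1% to 44.8% of all genes had one. The T cell, B cell and NK cell genes Cd3e, Pax5 and Ncr1 had none, whereas the endothelial gene Cdh5 had 4 in p30 UT and 3 in p42 UT.

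Leukocytes slow down, stop and cross a vessel wall in ordered steps. Selectins on the vessel wall bind carbohydrate carried by proteins such as PSGL-1, the product of Selplg, and the cell rolls. Chemokines then signal through receptors such as CXCR2, the neutrophil receptor for ELR-type CXC chemokines, and integrins switch to their binding form. The beta 2 chain (Itgb2) pairs with the alpha M chain (Itgam) to form Mac-1 and with the alpha L chain (Itgal) to form LFA-1, while the alpha 4 chain (Itga4) forms VLA-4 with beta 1. CD34 and CD44 are cell surface glycoproteins of progenitors, CD44 binding hyaluronan, and CXCR4 is the CXCL12 receptor that retains stem cells and immature neutrophils in the bone marrow.

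The sequences just before the start sites show how unlike these promoters are. RefSeq promoter windows, made for GRCm38 and placed on GRCm39 by exact match, were found for 6 of the members, and their starts lay at most 110 bases from the canonical ones. Windows for Itgal, Itgb2 and Selplg were not matched. The last 100 bases before the RefSeq start follow for 5 of these 6 genes, leaving out Itga4, which has no coverage value in p30 UT, in the direction of transcription, with GAGGAA or its reverse complement, the core bound by ETS factors such as PU.1, in capitals. They lie at chr7:127661712-127661811 (+) for Itgam, chr1:194621029-194621128 (+) for Cd34, chr2:102732011-102732110 (-) for Cd44, chr1:128520037-128520136 (-) for Cxcr4 and chr1:74193053-74193152 (+) for Cxcr2.
Itgam: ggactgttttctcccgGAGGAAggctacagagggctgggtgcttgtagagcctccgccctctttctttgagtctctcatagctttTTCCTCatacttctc
Cd34: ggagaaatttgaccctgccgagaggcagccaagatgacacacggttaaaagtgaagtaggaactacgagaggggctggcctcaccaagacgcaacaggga
Cd44: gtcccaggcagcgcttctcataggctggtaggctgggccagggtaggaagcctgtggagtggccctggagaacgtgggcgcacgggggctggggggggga
Cxcr4: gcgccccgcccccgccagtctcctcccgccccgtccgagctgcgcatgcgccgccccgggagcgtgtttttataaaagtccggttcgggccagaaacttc
Cxcr2: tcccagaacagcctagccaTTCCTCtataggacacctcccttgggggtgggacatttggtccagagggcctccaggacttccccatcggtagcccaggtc

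Across the whole windows of 300 bases, GAGGAA was found on either strand 3 times for Itgam, 2 times for Cxcr2 and 2 times for Cd44, and not for Cd34, Cxcr4 or Itga4. Of all 32851 windows, 28.3% held it. None of the 6 windows held the CEBP motif TTGCNNAA (10.8% of all windows), the AP-1 motif TGANTCA (7.81%), the longer ETS motif AGAGGAAG, which contains GAGGAA (4.55%), or the NF-kB motifs GGGACTTTC and GGGAATTTC (0.612%). This says only that these letters are not in these windows. The printed stretches held 69% G and C for Cxcr4 and 70% for Cd44, against 52% for Itgam, 54% for Cd34 and 60% for Cxcr2.

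The bins of 5 kb around and far from the start sites hold more such letters, as other bins do. Of the 141 start-site and partner bins of the members, 13 (9.22%) held TGATGCAA, the composite motif of CEBP and ATF factors, on either strand, and the share among all 64985 H3K27ac peak bins of the lists was 11.6%. TTGCNNAA was found in 88.7% of member bins and 85.8% of peak bins. The palindrome TTGCGCAA, a case of TTGCNNAA, was found in 1 member bin (0.709%, against 0.611% of peak bins). TGANTCA was in 83.7% of member bins and 77.4% of peak bins, and AGAGGAAG in 51.1% and 50.4%. As examples, chosen after the matches were seen, 3 matches at bins described further on are shown on the plus strand with the match in capitals, at chr1:194624032-194624069 in the start-site bin of Cd34, chr1:128541654-128541691 in the partner bin 20 kb upstream of Cxcr4, and chr1:74419755-74419792 in the partner bin of Cxcr2 at Slc11a1.
Cd34 start-site bin: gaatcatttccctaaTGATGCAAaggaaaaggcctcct
Cxcr4 partner, 20 kb upstream: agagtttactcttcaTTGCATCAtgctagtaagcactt
Cxcr2 partner, 225 kb downstream: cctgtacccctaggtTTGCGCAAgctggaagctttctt

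The 9 genes together had 48, 52, 118 and 54 loops. Every member had a loop in every list except Itga4, which had none in p30 UT. Of all 21751 protein-coding genes, 37.2%, 38.7%, 44.8% and 35.1% had a loop. In lists of equal size the sums were 48, 42, 75 and 54. The p42 UT list was therefore the richest by both counts, and the p30 lists and p42 LPS lay close together. The ratio of summed loops between p42 UT and p30 UT was 2.46 as deposited (1.76 to 3.43, from the 95% Wilson interval of the share, counting error only) and 1.56 in lists of equal size (1.09 to 2.24). Between p42 LPS and p30 LPS it was 1.04 (0.711 to 1.52), and 1.29 (0.861 to 1.92) in lists of equal size. Loops of 1 gene lie in adjacent bins and are not independent, so these intervals are too narrow.

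More loops in p42 UT than in p30 UT were listed for 9 of 9 members, where 79% of all genes with a loop had more. In lists of equal size this held for 8 of 9, all but Selplg, which had 7 in both, against a background of 38.3% of genes. After LPS, 3 of 9 members had more loops in the p42 list (background 20.6%) and 5 of 9 had fewer (background 51%). With lists of equal size, 5 of 9 had more (background 30.5%), namely Itgam, Itgal, Itgb2, Cd44 and Cxcr4, and 3 of 9 had fewer (background 42.3%). With LPS in p30 cells, 4 of 9 members had more loops as deposited (background 47%) and 3 of 9 had fewer (background 24.4%). In lists of equal size, 3 of 9 had more (background 39.1%) and 6 of 9 had fewer (background 34%). In p42 cells all 9 had fewer with LPS in the deposited lists, where 82.6% of genes did, and 7 of 9 had fewer in lists of equal size (background 41.3%). The exceptions were Itgam, with 7 loops in UT and 9 after LPS, and Itgal, with 8 in both.

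**Figure D1:**
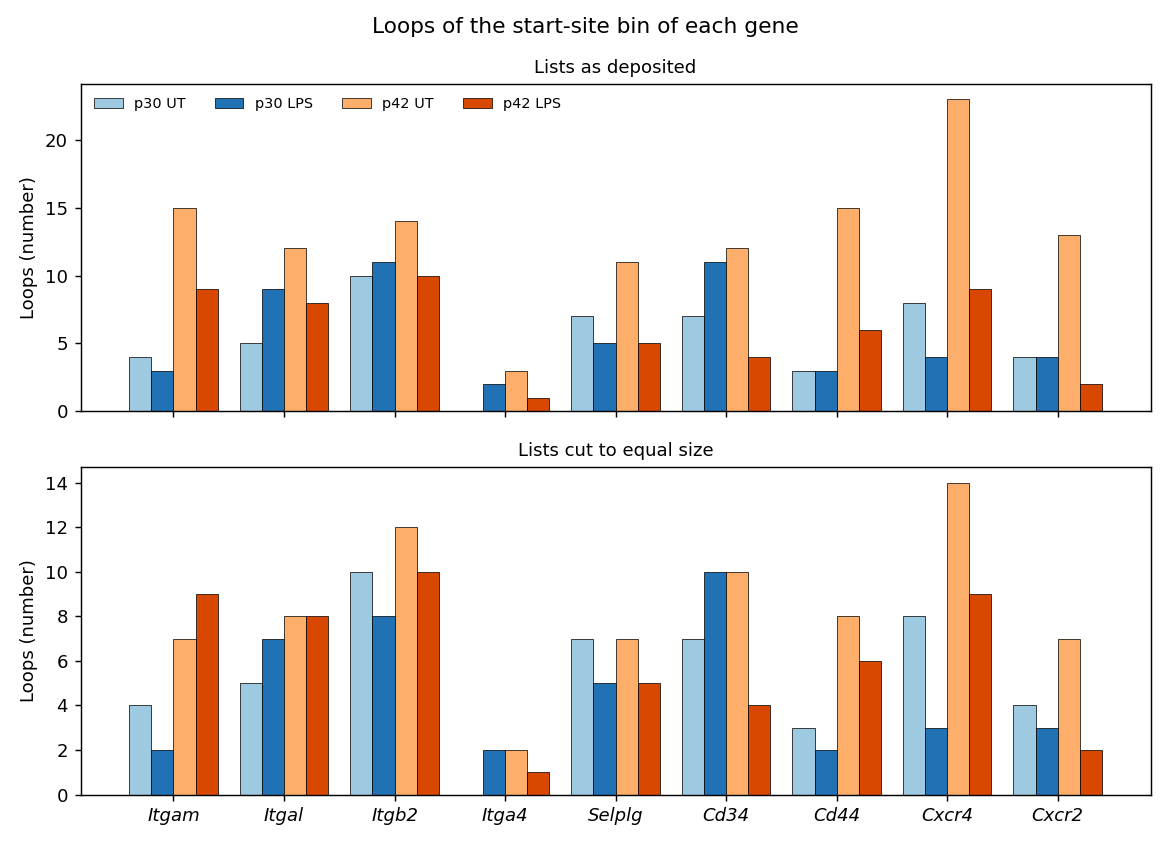
Number of loops of the start-site bin of each gene in the 4 lists, as deposited (top) and in lists of equal size (bottom). Each bar is 1 pooled list, so there are no error bars. Cxcr4 reaches 23 loops in p42 UT as deposited and 14 in lists of equal size.

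The loops themselves were divided unevenly between the isoforms. Of the 132 different loops, 22 were in all 4 lists, 47 were in p42 UT alone, 12 were in both p42 lists and no p30 list, and 0 were in both p30 lists and no p42 list. These are 16.7%, 35.6%, 9.09% and 0% of the member loops, and the shares over all 66931 start-site loops were 17.7%, 27.6%, 5.13% and 1.53%. In lists of equal size, 8 of 99 (8.08%) were in both p42 lists alone and 0 in both p30 lists alone, while the shares over all 50170 start-site loops were 4.14% and 3.75%. The 8 loops belonged to Itgam (3), Cxcr4 (2), Itgal, Itgb2 and Cd44. Loops that were in neither p30 list made up 35.4% of member loops of equal-size lists and 24.5% of all start-site loops, and loops in neither p42 list made up 10.1% and 27%. A pair that is missing from a list has an unknown number of contacts, since the caller wrote significant pairs alone.

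Member loops had lower median distances than all start-site loops in both p30 lists and in p42 LPS, and the same in p42 UT. Their median distance was 35, 30, 50 and 40 kb, where all start-site loops had medians of 50, 45, 50 and 45 kb. Contacts over the caller's expected number had a median of 3.81, 3.94, 4.45 and 3.97 for the members, below the 4.65, 4.72, 4.61 and 4.68 of all start-site loops. Of the 132 partner bins, 123 carried an H3K27ac peak flag. By list the share was 91.7%, 92.3%, 93.2% and 98.1%, and over all start-site loops 93.3%, 94.1%, 93.7% and 94.7%. A start site lay in 18 of the 132, an exon without a start site in 43, intron alone in 6 and no protein-coding gene in 65. The same split over all start-site loops is not given here.

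Coverage, the number of reads in a bin, was set relative to the mean coverage of peak bins in the same list. On this scale the start-site bins of Itgam, Itgb2, Cd44, Cxcr4 and Cxcr2 were higher in p42 than in p30 both untreated and after LPS. They are 5 of the 8 members with a value in all 4 lists, against 23.3% of the 6331 genes with such values. Other coverage shares and medians over all genes are over the 6913 to 7705 genes with a value in both lists compared. Differences of at least 1.5 times were rarer. In UT, 1 of 8 members, Cd44, was at least 1.5 times higher in p42 (background 3.61%), and after LPS 1 of 9, Cxcr4 (background 1.62%). With LPS in p42 cells, Cd34 was the 1 of 9 that was at least 1.5 times lower (background 1.06%). By any amount, 5 of the 9 members were higher in p42 after LPS, where the median log2 ratio of all genes was -0.11. When coverage was divided by modelled contacts instead, Cxcr4 after LPS was 1.38 times higher in p42, below 1.5 times. By any amount, 3 of the 9 members were then higher in p42 after LPS (background 5.45%). Itgam, at 0.990, and Itgb2, at 0.886, were the 2 that turned. This scale shifts every gene by 1 factor per comparison, and the members' counts stand against all genes on it. At least 1.5 times lower with LPS in p42 cells were 6 rather than 1 of 9 (background 24%), at least 1.5 times lower in p42 than in p30 after LPS were 3 rather than 0 of 9 (background 29.4%), and at least 1.5 times higher in p42 in UT were 3 rather than 1 of 8 (background 10.4%). The median log2 ratio of all genes moved from 0.06 to 0.26 for p42 over p30 in UT, from -0.11 to -0.45 after LPS, from 0.04 to 0.25 for LPS over UT in p30 and from -0.14 to -0.46 in p42.

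**Figure D2:**
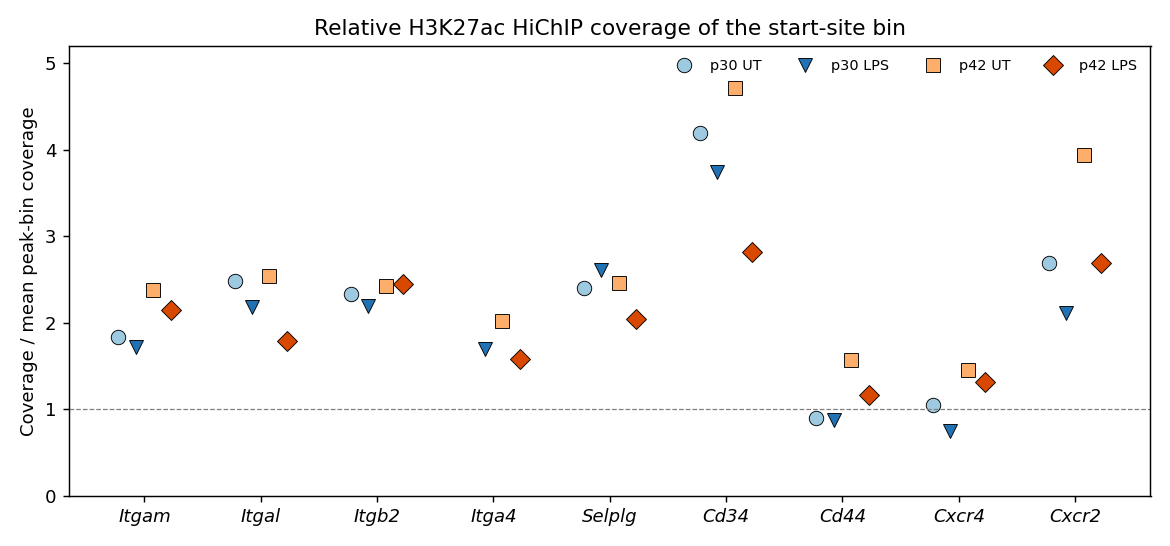
Relative coverage of the start-site bin (reads divided by the list's mean over peak bins, dashed line at 1) for each gene in the 4 lists, 1 point per pooled list. Cd34 has the highest value of the 9 genes in each list, and Cd44 and Cxcr4 have the lowest. Itga4 has no value in p30 UT.

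Among the integrin genes, Itgam (chr7:127661808-127716262, + strand) had the highest p42 to p30 ratios of coverage. It had 4, 3, 15 and 9 loops, and 4, 2, 7 and 9 in lists of equal size, so both p42 lists exceeded both p30 lists by either count. Relative coverage of its start-site bin was 1.83, 1.72, 2.38 and 2.15 in that order. The p42 value was 1.30 times the p30 value in UT and 1.25 times after LPS, ratios above those of 88.7% and 94.0% of genes. Per modelled contacts the ratio after LPS was 0.990. The bin also holds the annotated start of Gm49368, so its loops cannot be assigned to Itgam alone.

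The partner bins of Itgam ran upstream through a region without protein-coding genes and on to its neighbours. The bin 35 kb upstream had 14 contacts in p30 UT and, for p42, 28 in UT and 17 after LPS, and was not listed in p30 LPS. The bins 40 and 45 kb upstream were listed in p42 alone, with 24 and 19 contacts in UT and 17 and 14 after LPS. Start sites reached from Itgam included those of Pycard (the inflammasome adaptor ASC), Trim72 and Cox6a2. A bin 70 kb downstream inside Itgax, which encodes the alpha X chain of another beta 2 integrin, was listed in p42 alone with 12 contacts in UT and 13 after LPS. The 1 Itgam loop in all 4 lists, 10 kb upstream, had 60, 59, 109 and 63 contacts.

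Itgal (chr7:126895432-126934320, + strand) had 5, 9, 12 and 8 loops, and 5, 7, 8 and 8 with lists of equal size. Its coverage did not separate the isoforms in the same way. The relative values were 2.48, 2.19, 2.54 and 1.79, a p42 to p30 ratio of 1.02 in UT and 0.820 after LPS. With LPS, the value in p42 cells was 0.707 times that in UT, a ratio below which only 2.67% of genes lay. The bin 25 kb upstream, which holds the start of Sephs2, was listed throughout with 31, 35, 48 and 37 contacts. The bin 35 kb upstream had 19 contacts in p30 LPS and, for p42, 30 in UT and 22 after LPS, which is 4.97, 5.29 and 5.36 times the expected number, and was not listed in p30 UT.

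Itgb2 (chr10:77366086-77401520, + strand), the partner chain of both, had 10, 11, 14 and 10 loops. Of its 15 different loops, 7 were in all 4 lists, the highest number among the 9 genes. Its relative coverage was 2.34, 2.20, 2.42 and 2.45. Of the 15, 6 lay inside the gene itself. The bin 35 kb downstream, at the end of the gene, had the most contacts over expected in p30 UT (6.33 times), p30 LPS (4.97 times) and p42 UT (6.56 times). In p42 LPS the bin 25 kb downstream had the most. The bin 25 kb downstream had 23, 29, 50 and 40 contacts, 3.0 times the expected number in p30 UT and 4.9, 6.2 and 5.6 times in the other lists. Start sites of Slx9, Pttg1ip, Sumo3 and Ube2g2 were also reached.

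Itga4 (chr2:79085660-79163467, + strand) had the fewest different loops of the 9 genes, 5, with 0, 2, 3 and 1 in the lists. Its 2 loops in p30 LPS spanned 10 and 275 kb and its 3 in p42 UT spanned 10, 125 and 150 kb. None was in more than 2 lists. Relative coverage of its start-site bin was 1.69 in p30 LPS and, for p42, 2.02 in UT and 1.59 after LPS. Coverage is known only for bins with a loop, so no value exists for p30 UT. A low number of loops thus went with coverage well above the peak-bin mean.

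Selplg (chr5:113956597-113968567, - strand), which encodes the rolling ligand PSGL-1, had 7, 5, 11 and 5 loops, and 7, 5, 7 and 5 in lists of equal size, with no excess in p42. Relative coverage was 2.41, 2.61, 2.46 and 2.04. After LPS the p42 to p30 ratio was 0.780, while in UT it was 1.02. Its start-site bin met the bin 55 kb downstream that holds the starts of Sart3 and Iscu in all 4 lists, with 28, 29, 27 and 16 contacts. The bin 125 kb upstream, inside Ssh1 (a cofilin phosphatase), had 12, 20 and 22 contacts in p30 UT, p30 LPS and p42 UT, up to 10.1 times the expected number, and was not listed in p42 LPS.

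Cd34 (chr1:194621127-194643601, + strand) had the highest relative coverage of the 9 genes in each list, 4.19, 3.74, 4.71 and 2.81. The value of p42 LPS was the lowest, 0.597 times that of p42 UT, and only 0.283% of 7419 genes had a lower ratio. In p30 cells the LPS to UT ratio was 0.894. Loops followed the same order in p42, with 12 in UT and 4 after LPS (10 and 4 in lists of equal size), but not in p30, with 7 in UT and 11 after LPS (7 and 10).

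The bin 60 kb upstream of Cd34, chr1:194560001-194565000, held no protein-coding gene and had the most contacts over expected of the gene's partners in each list. It had 45, 30, 54 and 24 contacts, which is 12.4, 10.4, 14 and 8.22 times the expected number. Its own relative coverage was only 1.18, 1.13, 1.08 and 1.08. Of the 13 partner bins of Cd34, 5 carried no peak flag, all between 35 and 65 kb upstream. The bins 40, 50 and 55 kb upstream were listed in the same 3 lists and not in p42 LPS. The bin 40 kb upstream had 23, 27 and 33 contacts in p30 UT, p30 LPS and p42 UT.

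Cd44 (chr2:102641486-102732010, - strand) had 3, 3, 15 and 6 loops, and 3, 2, 8 and 6 in lists of equal size. Both p42 lists exceeded both p30 lists by either count. Relative coverage of the start-site bin was 0.900, 0.878, 1.57 and 1.16, at or below the peak-bin mean in p30 and above it in p42. The p42 to p30 ratio of 1.75 in UT was above that of 98.8% of genes, and the ratio of 1.33 after LPS above 96.2%. None of the 17 different loops was in all 4 lists.

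Most partners of Cd44 lay upstream of the gene, between 40 and 160 kb away. The bin 45 kb upstream had 14 contacts in p30 UT and, for p42, 32 in UT and 16 after LPS, and its own relative coverage was 1.72, 2.33, 2.73 and 2.18 over the 4 lists. The bin 85 kb upstream was listed in p42 UT alone, with 22 contacts, 8.15 times the expected number. Within the gene, 5 bins from 25 to 45 kb downstream were listed in p42 UT alone, with 13 to 27 contacts. Of these, 1 remained in the p42 UT list of equal size.

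Cxcr4 (chr1:128515936-128520044, - strand) had the largest number of different loops of the set, 25. The lists held 8, 4, 23 and 9, and 8, 3, 14 and 9 at equal size. Its start is 44 bases into its bin on the minus strand, so the transcribed part lies in the adjacent bin. Relative coverage of the start-site bin was 1.05, 0.752, 1.46 and 1.31, and that of the adjacent gene-body bin was 0.901, 0.625, 1.62 and 1.44. Both bins thus gave the same order of the lists. The p42 to p30 ratio at the start-site bin was 1.39 in UT and 1.74 after LPS, the latter above that of 99.3% of genes. In p30 cells the LPS value was 0.716 times the UT value, a ratio that 1.0% of genes fell below.

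Of the 25 partner bins of Cxcr4, 22 lay upstream in a region without protein-coding genes, and 3 lay downstream. The upstream bins formed 3 stretches in the partner map, from 15 to 75 kb, from 105 to 155 kb and from 215 to 235 kb. The bin 20 kb upstream had 36, 25, 80 and 28 contacts, and its own relative coverage was 3.53, 3.02, 5.63 and 4.33. The bin 120 kb upstream had 14 contacts in p30 UT and, for p42, 27 in UT and 23 after LPS, which is 6.9, 11.1 and 10.6 times the expected number. It was not listed in p30 LPS, although its coverage there, 2.998, was close to the 3.22 of p30 UT. The bin 230 kb upstream had 16, 23 and 11 contacts in the same 3 lists and reached 16.5 times the expected number in p42 UT, with a relative coverage near 1 (0.952, 0.939 and 0.989). The bin beside it, 235 kb upstream, was in all 4 lists with 8, 8, 13 and 8 contacts.

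**Figure D3:**
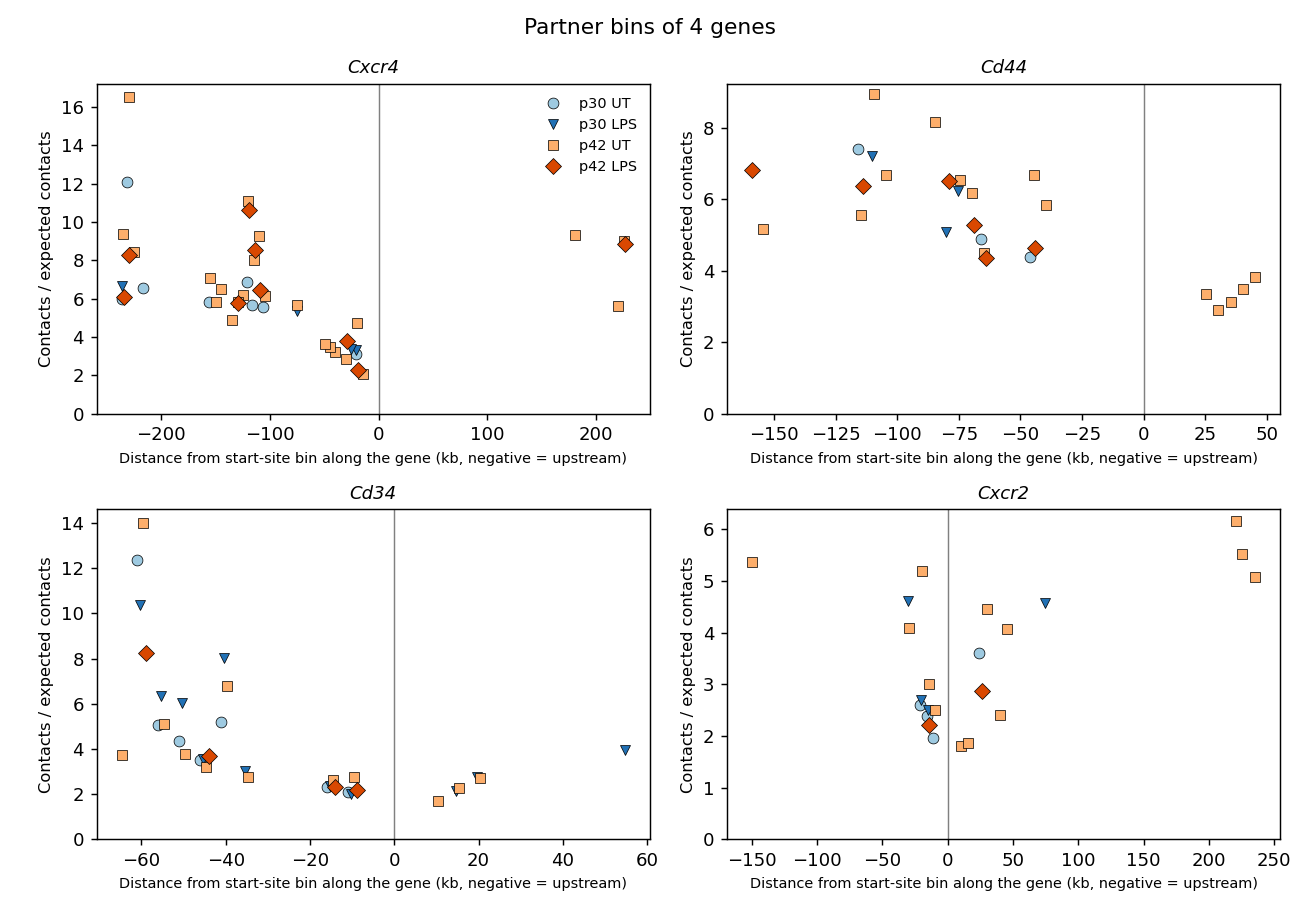
Partner bins of Cxcr4, Cd44, Cd34 and Cxcr2 by distance from the start-site bin along the gene (kb, negative is upstream) and by contacts over the expected number, with 1 symbol per list and loop. The point for Cd34 60 kb upstream is the highest of its panel in each list, and Cxcr4 shows 3 upstream stretches. Symbols of 1 bin are shifted sideways by up to about 1 kb.

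Cxcr2 (chr1:74193150-74200405, + strand) had 4, 4, 13 and 2 loops, and 4, 3, 7 and 2 in lists of equal size. The p42 list had more loops than the p30 list in UT alone. Relative coverage was 2.70, 2.12, 3.94 and 2.69, so p42 UT was the highest, at 1.46 times p30 UT, above 95.5% of genes. After LPS the ratio was 1.27, above 94.9% of genes, while the deposited lists held 2 loops in p42 and 4 in p30. The LPS to UT ratio was 0.785 in p30 and 0.684 in p42, ratios below which 4.0% and 1.58% of genes lay.

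The partners of Cxcr2 included bins at its paralogue Cxcr1, at Rufy4 and at Slc11a1. The bin with the start of Cxcr1, the adjacent chemokine receptor gene 40 kb away, was listed in p42 UT alone with 24 contacts, 2.41 times the expected number, and carried no peak flag. The 3 bins at Slc11a1, the phagosomal metal transporter gene, 220 to 235 kb away, were listed in p42 UT alone with 9 to 10 contacts each. The bin 20 kb upstream, inside Rufy4, had 28, 19 and 68 contacts in p30 UT, p30 LPS and p42 UT, and 2.59, 2.7 and 5.2 times the expected number. The bin 15 kb upstream was the 1 loop in all 4 lists, with 39, 27, 61 and 31 contacts.

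Contacts could be compared directly at the 22 member loops in all 4 lists. Each loop was put to an exact binomial test (two-sided), with the null share taken from modelled contacts and Benjamini-Hochberg adjustment over all 31032 such loops. It compares libraries. In UT, 5 of 22 had more contacts in p42 (background 10.1%), namely Itgam 10 kb upstream (60 and 109 contacts, exact binomial adjusted p = 0.0133), Itgb2 15 kb (42 and 87, exact binomial adjusted p = 0.00674) and 25 kb downstream (23 and 50, exact binomial adjusted p = 0.0458), Cd34 10 kb upstream (112 and 176, exact binomial adjusted p = 0.0171) and Cxcr4 20 kb upstream (36 and 80, exact binomial adjusted p = 0.00446). After LPS, 0 of 22 passed between the isoforms, where 0.248% of all loops had more contacts in p42 and 2.18% fewer. With LPS in p30, 0 of 22 passed (3.48% of all loops had more). With LPS in p42, 2 of 22 had fewer contacts (background 3.31%), Cd34 10 kb upstream (176 and 78, exact binomial adjusted p = 0.000481) and Cxcr4 20 kb upstream (80 and 28, exact binomial adjusted p = 0.00473).

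None of these 7 calls remained when the null share was the caller's own expected share, which follows coverage, or the share over all 31032 loops. Over all loops the p42 share of UT contacts was 57.5%, above the 51.4% of modelled contacts, and with that centre 66.9% of the calls over all loops were toward p42 instead of 98.9%. The share of calls toward the first-named list moved likewise, from 10.2% to 48.8% for p42 over p30 after LPS, from 99.0% to 75.9% for LPS over UT in p30 and from 2.19% to 40.1% for LPS over UT in p42. The p42 share at the 22 member loops was 58.7% in UT (95% Wilson interval 56.9 to 60.6, counting error only) and 48.6% after LPS (46.5 to 50.8), where the share over all loops was 48.6%. The caller's expected share at the members was 53.8% in UT and 50.9% after LPS. By gene, the UT share ran from 56.1% for Itgal to 67.9% for Cxcr4, whose interval of 59.7 to 75.1 lay above the share over all loops. It was the 1 interval of 7 that did so, is no test, and stands beside an expected share of 58.8% for Cxcr4.

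**Figure D4:**
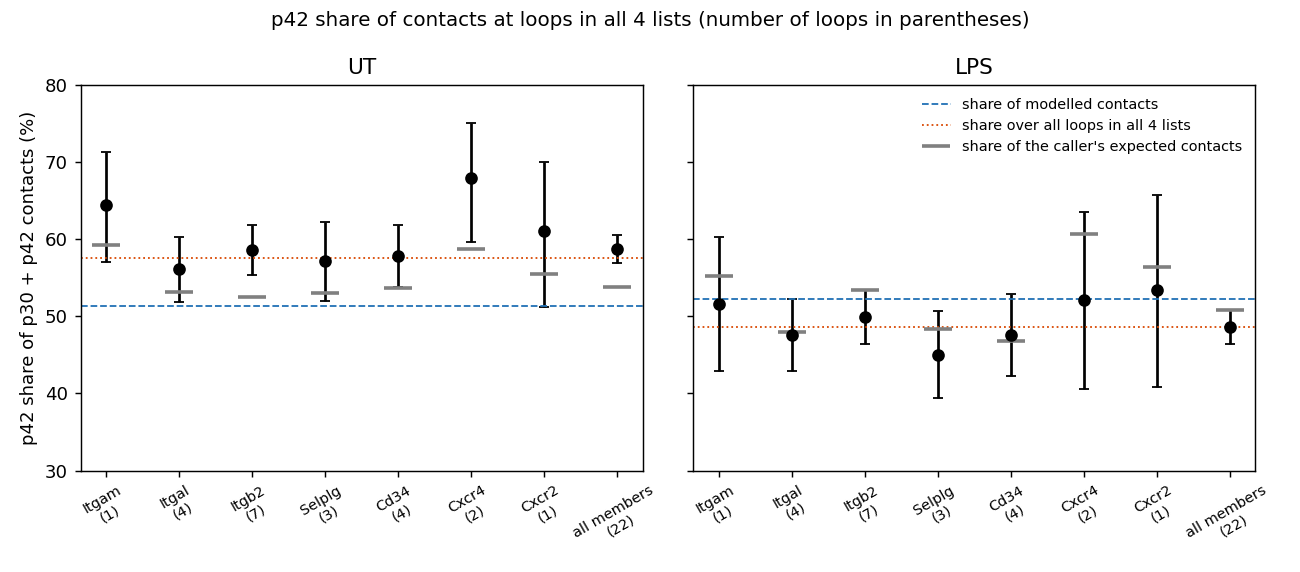
Share of p42 in the contacts of p30 and p42 at loops in all 4 lists, by gene, untreated (left) and after LPS (right), with 95% Wilson intervals. Lines give the share of modelled contacts and over all loops, and grey bars the caller's expected share. Cxcr4 has the highest share in UT, 67.9%.

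The same counts were taken for 54 other adhesion and homing genes. Of these, 45 had a loop in any list, with 231, 264, 449 and 247 loops. In lists of equal size, 18 had more loops in p42 UT than in p30 UT and 16 had fewer (background 38.3% and 34.6% of genes with a loop). After LPS 19 had more and 14 fewer (background 30.5% and 42.3%). The median log2 ratio of relative coverage between p42 and p30 was 0.17 over 38 genes in UT and -0.02 over 34 after LPS, where all genes had medians of 0.06 and -0.11. By group, again in lists of equal size and with genes without a loop included, 6 of the 12 selectins and selectin ligand enzymes, 3 of which had no loop, had more loops in p42 UT than in p30 UT and 2 fewer. Of the 11 other integrin subunits 3 had more and 4 fewer, and of the 9 ligands and junction proteins 1 had more and 2 fewer. Of the 9 integrin activation and linker genes, 4 had more and 3 fewer, and of the 13 other chemoattractant receptors 4 had more and 5 fewer. Coverage was at least 1.5 times higher in p42 UT for 4 of 38 of these genes (background 3.61%), among them Gcnt1, Ccr1 and Ezr. It was at least 1.5 times lower for 1, Itga9 (background 1.34%). Ccr1, a receptor for CC chemokines, had 10, 10, 19 and 12 loops, and its coverage was 2.04 times higher in p42 in UT and 1.55 times higher after LPS.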

How the data were processed

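The study's methods state mapping to mm39 with BWA-MEM (BWA 0.7.17 in the submitters' processing notes), pairtools for ligation products and duplicates, and FitHiChIP for loop calls. How replicates were pooled is not given in the sources used here. In the deposited lists, contacts and bin coverage are counts, contact probability is a fraction, coverage bias is a ratio to the mean of peak or other bins, and the q-value is the caller's adjusted p-value, at most 0.01. The caller corrects for coverage and lists significant pairs alone. Modelled contacts were computed by dividing the expected count by the probability, and mean peak-bin coverage as coverage over bias. Genes came from GENCODE M39. Intervals of shares are 95% Wilson intervals. The per-loop test was run on simulated contacts with a known set of changed loops, the rest drawn at the null share that the test assumes. A shifted centre and spread between libraries were not simulated. Motifs were searched on both strands. Python 3.11.15 with pandas 2.3.3, numpy 2.4.6 and scipy 1.17.1 was used.

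The named genes are the 9 members, with the partner genes they reach, and the genes named among the other adhesion genes were chosen after their values were seen. A few partner, marker and list genes are counted but not reported here by name. The members, the list of other genes and the alternatives were chosen with earlier results of these data known. The motifs TGATGCAA, TTGCGCAA and GAGGAA, and the null share over all loops, were chosen after seeing the data. Alternatives were stricter q-values, equal list sizes, at least 10 contacts, at least 20 kb, wider or other start sites, merged partner bins, other scalings of coverage and other null shares or sets of loops.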

Additional observations from a re-analysis of the deposited data

Results flagged for a closer look

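Several members differed in opposite directions between the isoforms or treatments. With 1 pooled list per group, none of these differences was tested, and differences of 1 to 3 loops or of a few hundredths in log2 are small. In lists of equal size, the difference LPS minus UT was -2 loops in p30 and 2 in p42 for Itgam, 2 and -1 for Itga4, and 3 and -6 for Cd34. The difference p42 minus p30 was 2 loops in UT and -1 after LPS for Itga4, 3 and -6 for Cd34, and 3 and -1 for Cxcr2. For relative coverage of the start-site bin, the log2 ratio of LPS to UT was -0.09 in p30 and 0.02 in p42 for Itgb2, and 0.12 and -0.27 for Selplg. Both signs of Itgb2 turned with coverage per modelled contacts, where the LPS to UT ratio was 1.08 in p30 and 0.809 in p42. The log2 ratio of p42 to p30 was 0.03 in UT and -0.29 after LPS for Itgal, 0.03 and -0.36 for Selplg, and 0.17 and -0.41 for Cd34.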

How the results depend on the processing

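No paired analysis was possible because each deposited list pools both replicates, and for the same reason no replicate could be left out. Of 74 recomputed values, 60 counted as unchanged. For ratios of summed loops this meant within the counting interval of the main value, and for counts within 1.5 times. A coverage ratio of 1 gene past 1.5 times had to stay past it. The exceptions follow, and their cause was not tested. The p42 UT to p30 UT ratio of summed loops was 3.69 at a q-value under 1e-05 and 1.56 in lists of equal size. The p42 LPS to p42 UT ratio, 0.458 as deposited, was 0.288 at a q-value under 1e-05, 0.72 in lists of equal size and 0.636 with adjacent partner bins counted as 1. Members with more loops in p42 LPS than in p30 LPS numbered 5 in lists of equal size instead of 3. On relative coverage the median log2 ratio of all genes was -0.11 for p42 over p30 after LPS. For LPS over UT it was 0.04 in p30 and -0.14 in p42. With coverage per modelled contacts, 3 members instead of 5 were higher in p42 after LPS (5.45% of all genes on this scale). With LPS in p30, 6 of 8 instead of 1 were higher (87.7%), and with LPS in p42, 0 of 9 instead of 1 (2.94%). On that scale the p42 to p30 ratio of Cxcr4 after LPS was 1.38 instead of 1.74, under 1.5 times. With the expected or the overall null share, 0 member loops were called in UT instead of 5 and 0 with LPS in p42 instead of 2. A relative coverage exists only for bins with a listed loop, and contacts of unlisted pairs are unknown.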
